A study of Mus musculus with 66 samples.

Results

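Muscle differentiation was followed in 3 C2C12 lines that carry GFP-tagged H3.1, H3.2 or H3t, the H3 variants that are not of the H3.3 type. These lines gave 6 of the 66 samples of the series, 1 growth library and 1 differentiated library of poly(A) RNA for each line, and the H3t line is named H3mmT in the columns of the expression table. The members described here are the 10846 of 22489 listed genes whose mean over the 6 libraries was at least 1 FPKM, where FPKM is the number of fragments per kilobase of transcript and per 1e+06 mapped fragments. Klc3 and Prr9 lay just inside this limit, with means of 1.00 FPKM each, and Trim62 and Cd1d1 just outside, with 0.999 FPKM each. The study asked which H3 variants the mouse genome holds and whether their presence in chromatin changes gene expression. C2C12 is a mouse myoblast line that fuses into myotubes when serum is withdrawn. In each line a Tet-On promoter drives 1 N-terminally GFP-tagged H3 protein under doxycycline, and GFP-positive cells were sorted to make the stable line, so a line stands for 1 transgene beside the H3 genes of the cell. Growth cells of the H3.1, H3.2 and H3t lines were kept in 20% foetal bovine serum and harvested at 60 to 70% confluence. Differentiated cells of the same lines were moved at confluence to 2% horse serum and harvested 48 h later. For comparison, 12 libraries came from 6 lines made in the same way with GFP-tagged H3.3 or 1 of the variants H3mm16, H3mm13, H3mm12, H3mm11 and H3mm7, called the H3.3-type lines here, and 2 from C2C12 cells without a transgene (WT). Each value is given for the H3.1, H3.2 and H3t lines in this order unless lines are named.

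As background, myoblasts divide until mitogens are withdrawn. MyoD and Myf5 mark the committed myoblast, and myogenin and the MEF2 factors then turn on the sarcomere, the calcium release apparatus and the acetylcholine receptor while the cell leaves the cell cycle for good. Muscle promoters hold E-boxes, the sites of the MyoD family, and cell cycle promoters hold sites for E2F, NF-Y and the DREAM complex, which represses them in arrested cells. H3.1 and H3.2 are assembled into nucleosomes mostly in S phase by CAF-1, whereas H3.3 is assembled throughout the cell cycle by HIRA, and H3t is a variant known from testis.

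Myoblast markers were present in every one of the 6 libraries, at unequal levels. Of 10 myoblast markers, 8 passed the filter, and their list summed to 374 to 502 FPKM in growth and 1374 to 1691 FPKM in differentiated cells, with Pax7 and Pax3, the satellite cell factors, under 1 FPKM throughout. Des alone gave 165 to 223 FPKM in growth and 547 to 775 FPKM after, a large part of these sums. Myod1 was far lower in growth in the H3.1 line than in the H3.2 and H3t lines, with values given below. In growth the H3.1 line was lowest for 5 of the 8, against 41.8% of all genes tested. The mean log2(FPKM + 1) of the 8 in growth was 4.19, 5.46 and 5.09. Markers of blood, endothelium, cartilage and bone, fat, and neurons were mostly under 1 FPKM in every library (9 of 11, 6 of 7, 10 of 12, 7 of 9 and 7 of 9), among them Ptprc, Pecam1, Col2a1, Adipoq and Rbfox3. The neuron list nevertheless summed to 112 to 131 FPKM in growth and 37.0 to 121 FPKM after differentiation, nearly all of it Tubb3, a tubulin gene, at 109.6, 128 and 118 FPKM and then 116, 38.1 and 29.96 FPKM. The fat list summed to 15.3 to 25.8 and then 10.3 to 16.02 FPKM, most of it Pparg, and the cartilage and bone list to 22.7 to 25.01 and then 14.0 to 19.6 FPKM, nearly all of it Runx2 and Sox9. Epithelial Krt14 and Krt19 were present and fell, so their list summed to 93.2 to 114 FPKM in growth and 17.6 to 34.4 FPKM after differentiation, while Epcam and Cdh1 stayed under 1 FPKM. Smooth muscle markers summed to 854 to 1875 FPKM in growth and 1746 to 2848 FPKM after differentiation, and Myh11 and Myocd stayed under 1 FPKM. Of the 6 tested, Acta2 and desmin (Des), which is also a muscle gene, rose, while Cnn1, Actg2 and Tagln fell, and the median change was -0.74. The sum of FPKM over all genes was 583613 to 657667 in these 6 libraries. No pair of the 6 libraries held identical values. The transgene and the histone genes of the H3 clusters were not analysed here.

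In differentiated cells 1083 genes were higher, 9.99% of those tested, and 1022 were lower, 9.42%. A gene was called where limma on log2(FPKM + 1), paired by line over 3 lines, gave a Benjamini-Hochberg adjusted p under 0.05 and the log2 change reached 1 in size. At an unadjusted p under 0.05 there were 6475 genes, 59.7%. Changes are given on this scale as differentiated minus growth, which understates the change of genes near 0 FPKM. Over all genes tested the median change was 0.01. Among the genes called higher, 1082 moved up in 3 of 3 lines and 1051 had their 3 differentiated libraries above the 3 growth libraries, a pattern seen in 24.8% of all genes tested. Among those called lower, 1021 moved down in 3 of 3 lines and 984 had groups that did not overlap, against 23.7% of all genes in that direction. The call was made on these same lines and favours such genes, so these counts are not separate support for it. The extent of change was not equal, since 31 genes called higher moved by more than 5 and 83 genes called lower by more than 3. As these are bulk RNA values, more muscle cells in a culture and more RNA of a gene in each cell cannot be told apart. Nothing in the labels says that a line was cultured more than once, so each p measures the spread between 3 lines with 3 transgenes. In WT, 1052 of the 1083 genes were also higher after differentiation and 1007 of the 1022 lower, without replicates. The WT libraries summed to 409319 FPKM in growth and 465247 FPKM after, below the 6 libraries. Gapdh was listed there at 0.361 and 0.263 FPKM, against 1827, 1048 and 1115 FPKM in growth of the 3 lines. WT levels may therefore not be comparable with those of the lines, and the cause was not tested.

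The regulators of the muscle program changed unequally. Of 12 tested myogenic transcription factors 5 rose and 0 fell, with a median change of 0.77. Myog, the gene of myogenin, was at 0.106, 3.21 and 1.19 FPKM in growth and at 333, 929.7 and 329 FPKM in differentiated cells, so the 3 differentiated libraries were far above growth, where the H3.1 line was lowest. Its change was 7.75 ± 0.20 (SE, adjusted p = 0.000198). Myod1, the gene of MyoD, went from 1.61, 25.1 and 11.7 FPKM to 38.1, 59.8 and 39.4 FPKM. It was called, with 2.27 ± 0.52 (SE, adjusted p = 0.0178), but growth levels spread from 1.61 FPKM in the H3.1 line to 25.1 FPKM in the H3.2 line, and without the H3.2 line it was not called (adjusted p = 0.191), nor without the H3t line (adjusted p = 0.052). Myf5, which acts beside MyoD, was not called, with 0.21 ± 0.23 (SE, adjusted p = 0.466), and Mef2a rose (1.80 ± 0.17 SE, adjusted p = 0.00129), as did Smyd1, a muscle methyltransferase (4.08 ± 0.21 SE, adjusted p = 0.000534), and Tead4 (1.46 ± 0.23 SE, adjusted p = 0.0051). Myf6 and Mef2c did not reach the filter, with at most 0.321 and 1.07 FPKM in any of the 6 libraries. Of 18 genes listed as inhibitors of myogenesis 7 rose and 4 fell, and the 7 include Hes6, known to promote differentiation instead. The 4 that fell were the dimerization inhibitors Id1, Id2 and Id3 and the repressor Twist2. Id2 went from 95.3, 88.5 and 62.7 FPKM to 12.2, 5.84 and 4.08 FPKM, with a change of -3.41 ± 0.19 (SE, adjusted p = 0.000599). Id3 was at 441, 292 and 288 FPKM in growth and at 162, 38.9 and 10.98 FPKM in differentiated cells, which put the H3t line lowest and the H3.1 line highest after differentiation. Its change of -2.97 ± 0.57 (SE, adjusted p = 0.0103) was not called without the H3.2 line (adjusted p = 0.313). The other direction was led by the receptor Notch3 (3.07 ± 0.12 SE, adjusted p = 0.000307) and held the Notch ligand Dll1, the Notch target repressors Hey1 and Heyl, and Hes6, a relative of these repressors known to promote myogenic differentiation. Of these Hey1 was not called without the block for the line (adjusted p = 0.0505). Zfp36l1 and Snai2 of the same list rose too, while Notch1, Notch2, Jag1 and Hes1 were not called.

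**Figure D1:**
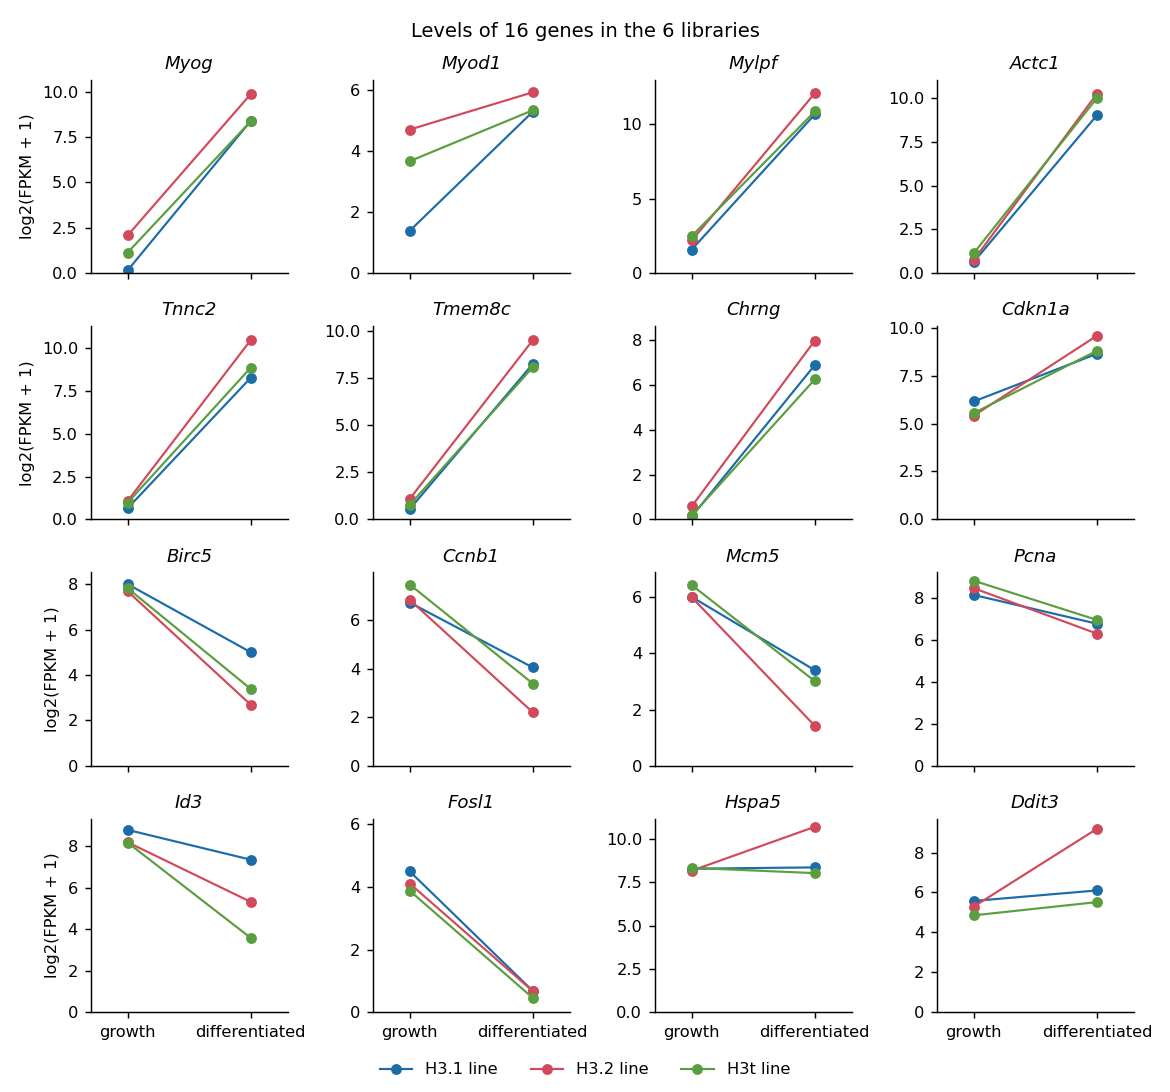
Levels of 16 genes as log2(FPKM + 1) on the y axis in the growth and differentiated library (x axis) of the H3.1, H3.2 and H3t lines, 1 point per library and 1 line per cell line. Muscle genes such as Myog and Mylpf rose in all 3 lines, cell cycle genes such as Birc5 and Ccnb1 fell least in the H3.1 line, and Hspa5 and Ddit3 were high only in the differentiated H3.2 library.

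Sarcomere genes made the largest changes. All 10 thick filament genes that passed the filter rose, with a median of 5.88, and 15 of 18 thin filament genes rose while 1 fell, with a median of 3.99. The filter favours genes that are high in differentiated cells, since 9 of 19 listed thick filament genes, among them Myh1, Myh2, Myh4 and Myh8, stayed below it. The same limit applies to the muscle lists that follow. There the filter passed 19 of 25 Z-disc and scaffold, 19 of 22 calcium handling, 10 of 14 endplate and 18 of 22 energy metabolism genes. Mylpf, the regulatory light chain of fast muscle, was at 1.99, 3.56 and 4.61 FPKM in growth and at 1629, 4355 and 1855 FPKM in differentiated cells, and the change was 9.12 ± 0.29 (SE, adjusted p = 0.00026), the largest of all genes tested. Actc1, the cardiac actin that embryonic muscle uses, went from 0.560, 0.689 and 1.21 FPKM to 521, 1221 and 1029 FPKM, a change of 8.92 ± 0.22 (SE, adjusted p = 0.000198). Skeletal actin Acta1 began higher, at 3.18, 10.96 and 24.9 FPKM, and reached 1463, 2934 and 1436 FPKM. Its change was 7.40 ± 0.51 (SE, adjusted p = 0.000801), and it missed the threshold without the H3.2 line (adjusted p = 0.0963). Myh3, the embryonic myosin heavy chain, went from 0.0211, 0.0481 and 0.176 FPKM to 95.6, 207 and 98.4 FPKM. Troponin genes of the fast and slow types rose together: 8.31 ± 0.36 (SE, adjusted p = 0.000383) for Tnnc2, 8.09 ± 0.32 (SE, adjusted p = 0.000307) for Tnni2, 7.94 ± 0.19 (SE, adjusted p = 0.000198) for Tnnt3, 7.63 ± 0.25 (SE, adjusted p = 0.00026) for Tnni1 and 6.51 ± 0.16 (SE, adjusted p = 0.000198) for Tnnt1. In growth none of these 5 exceeded 3.22 FPKM. The thin filament gene that fell was Tpm3, a tropomyosin also used outside muscle, at 303, 304 and 315 FPKM in growth and 157, 110.4 and 153 FPKM after differentiation (-1.14 ± 0.13 SE, adjusted p = 0.00222), and without the H3.2 line its change of -0.99 was under the size required. At the Z-disc and scaffold 16 of 19 genes rose, led by Klhl41 (4.85 ± 0.20 SE, adjusted p = 0.000307) with Myoz2 (4.68 ± 0.33 SE, adjusted p = 0.000812) and Ttn, the titin gene (2.51 ± 0.15 (SE, adjusted p = 0.000686), and 0.98 with a pseudocount of 5 FPKM, under the size required), while desmin (Des) started from 219, 223 and 165 FPKM and rose by 1.69 ± 0.10. Cryab, a small heat shock protein of the Z-disc, lay at 159, 147 and 118 FPKM and then 281, 256 and 197 FPKM, so its groups did not overlap, but its change of 0.79 ± 0.09 was under the size required.

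The genes of excitation and fusion rose as well. On the calcium handling list 15 of 19 genes were called higher and 1, the focal adhesion gene Parvb, lower, with a median of 3.11. Genes such as Cacna1s and Cav3, at most at 0.0181 and 0.0273 FPKM in growth, passed the filter only through their differentiated libraries. For such genes a rise was set by the filter. Casq2, a calcium store protein, went from 0.130, 0.101 and 0.313 FPKM to 41.1, 154 and 64.7 FPKM, a change of 6.00 ± 0.37 (SE, adjusted p = 0.000704). The release channel Ryr1 was at 0.0125, 0.0362 and 0.0441 FPKM in growth and reached 8.83, 17.6 and 4.95 FPKM (3.32 ± 0.32 SE, adjusted p = 0.00139), and its partner Cacna1s followed with 3.31 ± 0.33 (SE, adjusted p = 0.00152). The calcium pump Atp2a1 rose by 5.63 ± 0.37. Parvb, a focal adhesion protein on this list, fell (-1.09 ± 0.15 SE, adjusted p = 0.00346), by less than the size required without the H3.2 line (-0.91). Of 10 acetylcholine receptor and endplate genes 8 rose and 0 fell. Chrng, the subunit of the embryonic receptor, made the largest change (6.74 ± 0.26 SE, adjusted p = 0.000292), Chrnd rose by 5.29 ± 0.14, and Chrna1, already at 51.6, 49.7 and 40.2 FPKM in growth, rose by 2.18 ± 0.12. Of 15 fusion genes 8 rose and 0 fell. Tmem8c, which encodes the fusion protein myomaker, was at 0.464, 1.13 and 0.710 FPKM in growth and at 305, 735 and 271 FPKM in differentiated cells, a change of 7.82 ± 0.23 (SE, adjusted p = 0.000237). Gm7325, the gene of the second fusion protein myomixer, rose by 6.77 ± 0.24, from 0.118, 0.557 and 0.202 FPKM to 78.5, 261 and 130.2 FPKM. Cdh15, the muscle cadherin, was at 55.5, 57.8 and 33.0 FPKM before and 240.3, 203 and 158 FPKM after.

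Muscle enzymes rose in part. Of 18 genes 11 rose and 1 fell, with a median of 1.50. Ckm, the muscle creatine kinase, went from 0.0562, 0 and 0.0708 FPKM to 144, 257 and 94.9 FPKM, a change of 7.20 ± 0.29 (SE, adjusted p = 0.000307). The respiratory chain isoforms Cox8b (6.89 ± 0.39 SE, adjusted p = 0.00059) and Cox6a2 (5.27 ± 0.55 SE, adjusted p = 0.00166) and the oxygen store myoglobin, Mb (5.17 ± 0.18 SE, adjusted p = 0.000289), rose from levels near 0. Cox6a2 was not called without the H3.1 line (adjusted p = 0.087). Eno3, the muscle enolase, was at 383, 406 and 383 FPKM in growth and 254, 442 and 312 FPKM after differentiation, with lines in both directions and no call (-0.25 ± 0.15 SE, adjusted p = 0.217). Pdk4, which holds back pyruvate oxidation, fell (-1.01 ± 0.25 SE, adjusted p = 0.0214), a call lost without the H3.2 line (adjusted p = 0.161) or the H3t line (adjusted p = 0.101). Subunits of the respiratory chain shared by all tissues moved little, with 1 of 36 called, and a median of 0.36, and 25 of the 36 were up in all 3 lines.

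Cell cycle genes fell in all 3 lines. All 36 DNA replication genes of the list were called lower, from Rrm1 at -1.57 to Mcm5 at -3.53, with a median of -2.51. In mitosis 35 of 36 were called lower, with a median of -3.32. The one not called was Racgap1, listed at 0 FPKM in the growth library of the H3.1 line and at 134 and 146 FPKM in those of the H3.2 and H3t lines. Birc5, the gene of survivin, a subunit of the mitotic Aurora B complex, was at 255, 205 and 225 FPKM in growth and at 31.0, 5.45 and 9.45 FPKM in differentiated cells. It made the largest fall of the list, -4.14 ± 0.38 (SE, adjusted p = 0.00129), and the 3 differentiated libraries lay well below growth but differed from each other. Ccnb1, the mitotic cyclin B1, went from 104, 113 and 175 FPKM to 15.5, 3.59 and 9.43 FPKM, a change of -3.79 ± 0.37 (SE, adjusted p = 0.00146). Plk1, a mitotic kinase, was at 71.5, 62.9 and 61.4 FPKM in growth and at 11.01, 1.32 and 3.13 FPKM after differentiation (-3.77 ± 0.41 SE, adjusted p = 0.00184). Cenpa, the centromeric H3 variant, was at 93.2, 90.1 and 83.9 FPKM in growth and at 14.6, 3.21 and 3.73 FPKM after (-3.73 ± 0.37 SE, adjusted p = 0.00146). Mcm5, a subunit of the replicative helicase, was at 63.3, 62.7 and 85.1 FPKM in growth and at 9.55, 1.68 and 7.06 FPKM in differentiated cells (-3.53 ± 0.37 SE, adjusted p = 0.00165). Pcna, the sliding clamp of the replication fork, went from 279, 349 and 447 FPKM to 108, 77.3 and 122 FPKM, a smaller fall of -1.80 ± 0.17 (SE, adjusted p = 0.00134). The ribonucleotide reductase subunit Rrm2 kept 87.4, 94.2 and 62.2 FPKM after differentiation, from 312, 458 and 456 FPKM.

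Genes of arrest moved against each other. Of 12 tested, 5 rose and 2 fell. Cdkn1a, the gene of the CDK inhibitor p21, was at 70.3, 41.7 and 45.7 FPKM in growth and at 398, 765 and 445 FPKM in differentiated cells, a change of 3.302 ± 0.31 (SE, adjusted p = 0.00136). Rb1, the retinoblastoma gene, rose by 2.01 ± 0.18, and Ccnd3, the cyclin kept by differentiated muscle, by 1.45 ± 0.14, whereas the related pocket protein gene Rbl1 fell (-1.99 ± 0.23 SE, adjusted p = 0.00225) and so did the CDK inhibitor gene Cdkn2c (-1.14 ± 0.10 (SE, adjusted p = 0.00116), and -0.92 with a pseudocount of 5 FPKM, under the size required). Among E2F factors and G1 cyclins 7 of 17 fell and 1 rose. Cyclin D1, Ccnd1, fell from 132, 133 and 139 FPKM to 24.3, 11.3 and 29.05 FPKM (-2.69 ± 0.26 SE, adjusted p = 0.00136). E2f7 and E2f8, repressors of the family, fell, with changes of -2.86 ± 0.29 and -1.44 ± 0.18, and E2f2 was the one that rose (1.57 ± 0.15 SE, adjusted p = 0.00131). Myc was not called and the lines went apart, from 40.7, 44.5 and 41.9 FPKM to 19.3, 70.2 and 9.68 FPKM.

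Chaperones of H3 fell in part. Of 18 tested, 9 fell and 0 rose. Asf1b fell most (-3.31 ± 0.28 SE, adjusted p = 0.0011), with both large subunits of CAF-1, Chaf1a (-2.81 ± 0.27 SE, adjusted p = 0.00143) and Chaf1b, the H3 to H4 chaperone Nasp (-2.35 ± 0.16 SE, adjusted p = 0.000794), and Hjurp, the chaperone of Cenpa (-1.54 ± 0.14 SE, adjusted p = 0.00131), whose change of -0.73 with a pseudocount of 5 FPKM was under the size required. Hira, the core of the H3.3 assembly complex, went from 18.2, 19.7 and 16.6 FPKM to 9.96, 9.72 and 7.78 FPKM, a change of -0.92 ± 0.10 (SE, adjusted p = 0.00202) that was under the size required. Daxx, the chaperone of H3.3 in heterochromatin, was at 10.4, 7.98 and 9.85 FPKM and then 8.35, 7.97 and 6.62 FPKM, and was not called. Of 17 genes of Polycomb and DNA methylation 7 fell and 1 rose. Ezh2, the H3K27 methyltransferase of dividing cells, was at 37.2, 44.2 and 57.0 FPKM in growth and at 12.6, 10.8 and 11.5 FPKM in differentiated cells (-1.88 ± 0.16 SE, adjusted p = 0.0012). Its relative Ezh1 went from 2.72, 3.48 and 3.35 FPKM to 10.7, 14.0 and 13.8 FPKM, so the pair moved in opposite directions in 3 of 3 lines (1.72 ± 0.10 SE, adjusted p = 0.00065 for Ezh1). The maintenance DNA methyltransferase Dnmt1 (-2.25 ± 0.22 SE, adjusted p = 0.00139) and its partner Uhrf1 (-3.52 ± 0.34 SE, adjusted p = 0.00143) fell. Histone genes outside the clusters were few: H2afz changed by -1.81 ± 0.10 and H2afx by -2.66 ± 0.18, while the linker histone H1f0 was at 85.0, 94.3 and 84.4 FPKM and then 88.3, 107 and 89.4 FPKM.

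Promoters of these gene groups differed in the sequence motifs they hold, which is why short stretches around them are shown. RefSeq promoter windows of build GRCm38.p6, which run from 250 bases before to 50 bases after a start, were matched for 8683 of the 10846 genes (11070 windows), 567 of them through an older symbol, and both strands were read. CAGCTG, the E-box of myogenic factors, was in 15.2% of all these windows, in 26.5% of 1095 windows of genes called higher and in 13% of 999 windows of genes called lower. Of 10 thick filament windows 5 held it, and of 16 thin filament windows 8. TTTGAA, the cell cycle homology region (CHR) that DREAM binds, was in 11.8% of all windows, in 20.9% of the windows of genes called lower, and in 24 of 33 mitosis windows, 72.7%. It was in 3 of 36 DNA replication windows. GCGGGAA, a core of the E2F site, had the reverse distribution, with 15 of 36 DNA replication windows, 41.7%, and 0 of 33 mitosis windows, against 8.4% of all. CCAAT, the NF-Y box, was in 38.1% of all windows, 58.3% of DNA replication windows and 78.8% of mitosis windows. TATAAA was in 6.79% of all windows and in 4 of 10 of the thick filament. No motif holds the letters of another. These are matches of letters, without a test, and do not show that a factor was bound. In each stretch below the capitals mark the motif nearest before the start of transcription, read 5′ to 3′ on the strand of the gene. The first 5 are E-boxes of the sarcomere genes that changed most among those whose window held one, the next 5 CHR elements of mitosis genes and the last 5 E2F cores of DNA replication genes.
Mylpf, chr7:127211545-127211574, plus strand: cttcctgggctcCAGCTGctgcaggcctcc
Myl1, chr1:66945263-66945292, minus strand: aggtacgtctgtCAGCTGtcaccaaaccaa
Tnni1, chr1:135799341-135799370, plus strand: gggaaggaggggCAGCTGgaggggcagcgg
Mybph, chr1:134193357-134193386, plus strand: gacctgaccccaCAGCTGggaatggtttgc
Acta1, chr8:123894979-123895008, minus strand: gggaggggcagaCAGCTGgggatactctcc
Cdc20, chr4:118437344-118437373, minus strand: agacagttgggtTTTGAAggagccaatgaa
Top2a, chr11:99024195-99024224, minus strand: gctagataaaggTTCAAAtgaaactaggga
Ube2c, chr2:164769888-164769917, plus strand: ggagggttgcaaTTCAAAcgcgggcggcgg
Cdk1, chr10:69352913-69352942, minus strand: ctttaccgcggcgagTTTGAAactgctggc
Mki67, chr7:135716460-135716489, minus strand: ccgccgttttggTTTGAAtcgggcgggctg
Uhrf1, chr17:56303278-56303307, plus strand: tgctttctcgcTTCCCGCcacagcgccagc
Cdc6, chr11:98908002-98908031, plus strand: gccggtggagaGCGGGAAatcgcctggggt
Chaf1b, chr16:93883663-93883692, plus strand: tcctccgaggcGCGGGAAtgggattcccag
Chaf1a, chr17:56040358-56040387, plus strand: ggttgccgcggTTCCCGCcaaatacgagcg
Prim1, chr10:128015185-128015214, plus strand: tggaggcctgtcttgTTCCCGCcaattctc
The E-box of Mylpf began 51 bases before the start and that of Tnni1 68 bases, whereas those of Myl1 and Acta1 lay at 224 and 221 bases. The CHR of Cdc20, Top2a, Ube2c and Cdk1 lay within 29 bases of the start.

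Extracellular matrix genes changed in both directions, with 10 of 34 called higher and 8 lower. Dcn, the gene of the collagen-binding proteoglycan decorin, was at 0.442, 0.282 and 0.180 FPKM in growth and at 49.7, 61.9 and 53.4 FPKM in differentiated cells (5.43 ± 0.14 SE, adjusted p = 0.000198). This gene was at under 1 FPKM in growing cells of all 3 lines. It passed the filter only through its differentiated libraries, so a rise was set by the filter. Mgp, the inhibitor of calcification matrix Gla protein, went from 43.4, 46.2 and 16.2 FPKM to 984, 871 and 502 FPKM (4.52 ± 0.15 SE, adjusted p = 0.00026). Col3a1 (1.43 ± 0.17 SE, adjusted p = 0.00227) and Postn (1.55 ± 0.20 SE, adjusted p = 0.00285) rose as well. Without the block for the line Postn was not called (adjusted p = 0.1). Among the falls were the adhesion modulator Tnc (-2.77 ± 0.48 SE, adjusted p = 0.00725), Timp3 (-2.23 ± 0.23 SE, adjusted p = 0.00166), Timp1, Thbs2, Col6a3, Col8a1 and Nid1. Col1a1 lay at 104, 70.4 and 6.39 FPKM in growth, so the H3t line was apart before differentiation, and at 42.5, 51.0 and 8.20 FPKM after, and was not called. Without the H3.2 line 3 matrix genes were called lower, with Tnc among those lost (adjusted p = 0.121), without the H3t line 5 and without the block 4.

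Growth factor genes rose in 7 cases of 15 and fell in 1. H19, the imprinted RNA next to Igf2, was at 27.6, 56.6 and 29.4 FPKM in growth and at 1258, 3076 and 881 FPKM in differentiated cells (5.35 ± 0.18 SE, adjusted p = 0.000275). Igfbp5, a secreted IGF binding protein, went from 2.59, 24.0 and 5.15 FPKM to 335, 264 and 282 FPKM (5.16 ± 0.58 SE, adjusted p = 0.00205). Fgf21 went from 0.0731, 0.0378 and 0.0291 FPKM to 11.9, 118 and 14.0 FPKM, highest in the H3.2 line, a change of 4.77 ± 0.66. It passed the filter only through its differentiated libraries, so a rise was set by the filter. Without the H3.1 line Fgf21 was not called (adjusted p = 0.0844). Igf2, the growth factor that H19 neighbours, split the lines, since it went from 0.166, 0.0326 and 0.634 FPKM to 74.1, 14.2 and 0 FPKM, where 0 is the listed value of the differentiated H3t library. It was not called. Inhba, an activin subunit, fell (-2.51 ± 0.13 SE, adjusted p = 0.00057). Among serum response genes 9 of 24 fell and 3 rose. Fosl1, the AP-1 subunit Fra-1, went from 21.7, 16.3 and 13.7 FPKM to 0.601, 0.595 and 0.372 FPKM (-3.56 ± 0.14 SE, adjusted p = 0.000292), and the urokinase receptor Plaur (-3.03 ± 0.20 SE, adjusted p = 0.00074) and the chromatin protein Hmga2 (-2.30 ± 0.11 SE, adjusted p = 0.000488) fell as well. Ctgf, a matricellular growth factor, was at 686, 269 and 773 FPKM in growth and at 318, 15.8 and 36.2 FPKM in differentiated cells, which left the H3.1 line far above the others. Its call (-3.17 ± 0.67 SE, adjusted p = 0.0157) was lost without the H3.2 line (adjusted p = 0.356), without the H3t line (adjusted p = 0.0608) and without the block (adjusted p = 0.0504). Egr1 (2.28 ± 0.25 SE, adjusted p = 0.00197), Fos (1.72 ± 0.41 SE, adjusted p = 0.02) and Spry2 rose. In the fit on 18 libraries Egr1 and Fos were not called (adjusted p = 0.149 and 0.107), Fos was not called without the H3.2 line (adjusted p = 0.235), and Spry2 not without the H3t line (adjusted p = 0.0854).

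Sterol synthesis genes were called in 1 direction. Of 22 tested 11 were called higher and 0 lower, and 21 of the 22 were up in 3 of 3 lines, with a median of 1.11. Tm7sf2, a sterol reductase, went from 8.41, 5.97 and 3.40 FPKM to 39.7, 85.3 and 78.1 FPKM (3.303 ± 0.39 SE, adjusted p = 0.00234), and Mvd (2.29 ± 0.35 SE, adjusted p = 0.00469) and the feedback regulator Insig1 (1.84 ± 0.21 SE, adjusted p = 0.00215) followed. Sqle, an enzyme of the pathway, was not called, at 0.74 ± 0.19, and Hmgcs1 was listed at 0 FPKM in all 6 libraries. Without the H3.2 line 5 of the 22 were called and Tm7sf2 was not (adjusted p = 0.13). NRF2 target genes fell in 6 of 14 cases with 0 rises, led by Nqo1, a quinone reductase (-2.46 ± 0.18 SE, adjusted p = 0.000827), while Mt1, a metallothionein, was at 712, 672 and 294 FPKM in growth and 647, 494 and 391 FPKM after. Interferon targets were mostly too low, since 19 of 28 did not reach the filter; 4 of the other 9 rose, Ifi27l2a most (3.26 ± 0.30 SE, adjusted p = 0.00131). Proteasome genes (28) and cytosolic ribosomal protein genes (36) had no call in either direction, with medians of -0.41 and -0.21. At an unadjusted p below 0.05, 21 and 14 of them passed, a level that 59.7% of all genes tested reached.

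The 10 largest falls also held genes of no list. Sprr1a, a cornified envelope gene also known from injured neurons, was at 306, 227 and 50.7 FPKM in growth and at 2.04, 6.63 and 6.64 FPKM in differentiated cells (-4.77 ± 0.74 SE, adjusted p = 0.00678), with the H3t line low before differentiation and the call lost without the H3.2 line (adjusted p = 0.269). Prl2c2, a proliferin, fell (-3.80 ± 0.30 SE, adjusted p = 0.000973), as did 2810417H13Rik, the gene of a PCNA-associated factor (-3.68 ± 0.36 SE, adjusted p = 0.00141).

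**Figure D2:**
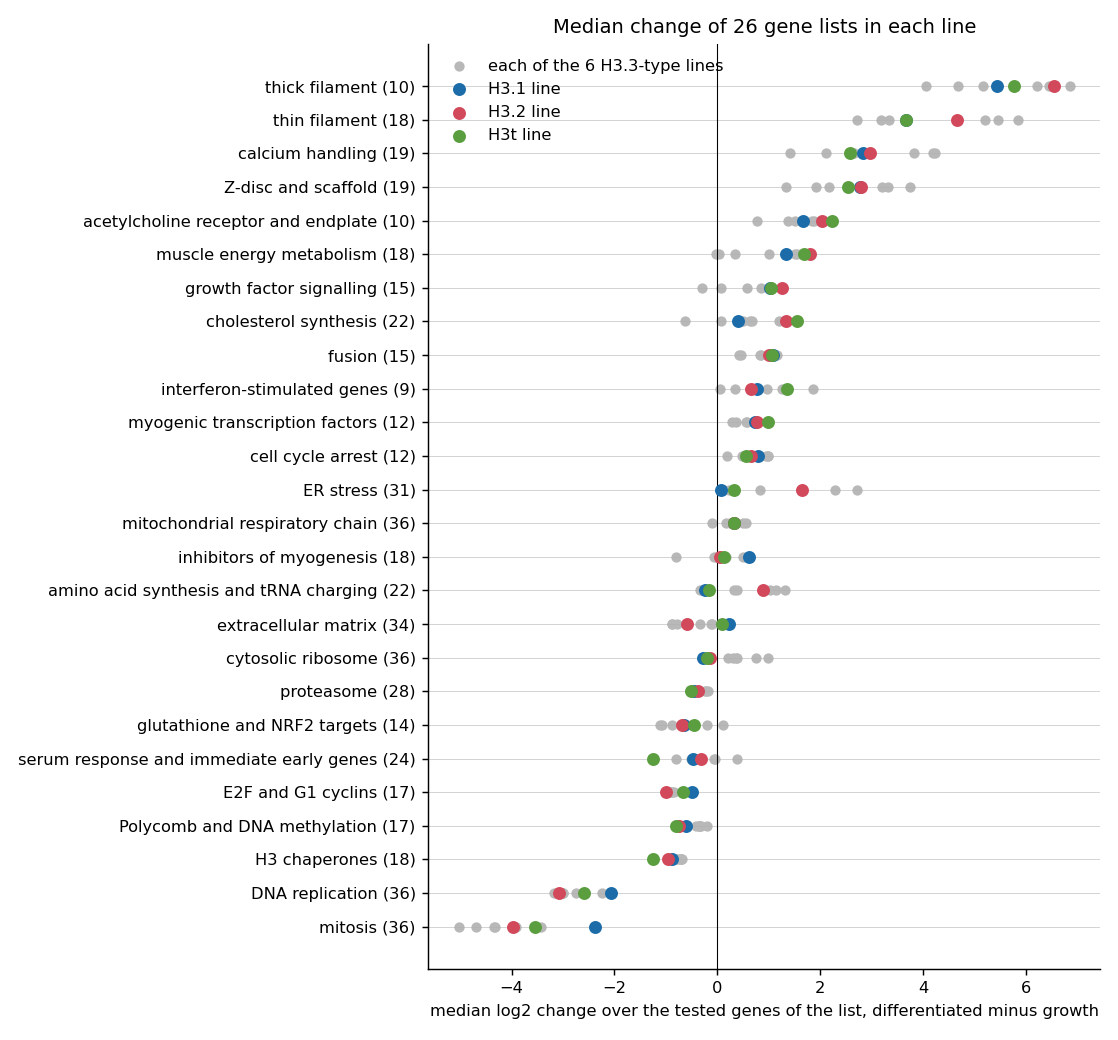
Median log2 change (differentiated minus growth, x axis) over the tested genes of each of 26 gene lists (y axis, number of genes tested in brackets) for the H3.1, H3.2 and H3t lines, with each of the 6 H3.3-type lines as a grey point. The H3.1 line lay at -2.38 for mitosis against -3.97 and -3.54 in the H3.2 and H3t lines, and the H3.2 line at 1.65 for ER stress against 0.07 and 0.33.

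The changes of the 3 lines correlated across genes but were of unequal extent. Over the 10846 genes the change of the H3.1 line correlated with that of the H3.2 line at r = 0.87 and with that of the H3t line at r = 0.90, and the H3.2 and H3t lines at r = 0.87, as a description across genes. Of the 2105 genes called, 2103 had the same sign in the H3.1 and H3.2 lines. The call on these same lines nearly fixes that count, so it does not show separately that the lines agree. In the H3.1 line 1031 genes (9.51%) were higher by at least 1 and 871 (8.03%) lower by as much, against 1277 (11.8%) and 1254 (11.6%) in the H3.2 line and 1207 (11.1%) and 1223 (11.3%) in the H3t line. With 1 library per line and state, what follows has no replicate within a line and no test.

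Cell cycle genes fell least in the H3.1 line. Their levels in growth did not order the lines in this way, since the H3.1 line was highest for 9 of 36 mitosis genes and the H3t line for 26. After differentiation the H3.1 line was highest for 36 of 36 and the H3.2 line lowest for 36 of 36, where 37.2% and 35.5% of all genes tested had these places. The median mitosis gene stood at 49.4, 49.2 and 54.0 FPKM in growth and at 9.10, 1.96 and 3.66 FPKM after differentiation. The median change was -2.38, -3.97 and -3.54, with -2.72 in WT and -5.02 to -3.43 in the H3.3-type lines. For DNA replication the H3.1 line was highest for 28 of 36 genes and the H3.2 line lowest for 32, with medians of 9.86, 3.94 and 6.998 FPKM. Mki67, the proliferation antigen, stood at 47.7, 42.2 and 42.6 FPKM in growth and at 8.09, 1.40 and 2.87 FPKM after. Tk1, thymidine kinase, was at 139, 132 and 116 FPKM in growth and at 21.7, 5.36 and 9.03 FPKM in differentiated cells.

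Thick filament and ER stress genes were highest in the differentiated H3.2 library, where 32.2% of all genes tested had the highest of the 3 differentiated values. All 10 tested thick filament genes had their highest of the 3 differentiated values there, with a median of 272 FPKM against 94.3 and 90.4 FPKM, and so did 13 of 18 thin filament genes, of which 12 of 18 were highest in the H3.2 line in growth as well. The other muscle lists were more divided, with 15 of 19 calcium handling genes, 13 of 18 of energy metabolism, 7 of 10 of the acetylcholine receptor and endplate, 7 of 12 myogenic factors, 10 of 19 Z-disc genes and 5 of 15 fusion genes highest there. The ER stress list followed the same line. Its 31 genes changed most positively in the H3.2 line in 31 of 31 cases, against 37.8% of all genes tested, and 29 of 31 stood highest in its differentiated library. The median change of 1.65 in the H3.2 line stood against 0.07 and 0.33 in the H3.1 and H3t lines, 0.69 in WT and 0.13 to 2.72 in the 6 H3.3-type lines, so it lay within the range of the last. Ddit3, the gene of the stress factor CHOP, went from 46.6, 38.2 and 27.9 FPKM to 67.6, 582 and 44.7 FPKM. Hspa5, the ER chaperone BiP, was at 313, 289.8 and 324 FPKM in growth and at 331, 1687 and 263 FPKM in differentiated cells. Herpud1, an ER membrane protein of the same response, went from 31.6, 30.2 and 27.6 FPKM to 75.2, 515 and 53.4 FPKM. Herpud1 was called (2.07 ± 0.63 SE, adjusted p = 0.0407), 1 of 8 called in this list, and lost the call without the H3.1 line (adjusted p = 0.273) or the H3t line (adjusted p = 0.0542). Without the H3.2 or the H3t line 5 genes of the list were called. Trib3 rose by 2.54 ± 0.53 to 18.2, 142 and 26.3 FPKM and Chac1 by 1.90 ± 0.36 to 40.5, 140.2 and 34.7 FPKM. Without the H3.2 or the H3t line Trib3 was not called (adjusted p = 0.0651 and adjusted p = 0.0609). Ddit3 and Hspa5 were not called, and without the H3.2 line the change of Hspa5 was -0.11. Serine and asparagine synthesis and tRNA charging genes moved in the same library, where 22 of 22 had both their highest value after differentiation and their most positive change. Only Vars, a tRNA synthetase, was called, and it fell (-1.09 ± 0.18 SE, adjusted p = 0.00593), by less than the size required without the H3.1 line (-0.96) or the H3t line (-0.98). Mthfd2, a mitochondrial folate enzyme, stood at 68.0, 80.6 and 86.3 FPKM and then at 67.4, 205 and 87.1 FPKM. Fgf21, Dnajb9 and Sdf2l1, known to rise in stress of the ER, were among the 5 genes whose rise in the H3.2 line exceeded the mean of the other 2 lines most, by 3.12, 3.17 and 3.08. In the opposite direction the H3.2 line was lowest in Fibin, Igfbp5, Col12a1, Loxl2 and Stmn2, and for 26 of 34 matrix genes it had the lowest differentiated value. Sterol synthesis genes changed most positively in the H3t line (21 of 22, against 26.1% of all genes tested) and least in the H3.1 line (21 of 22, against 24.6%). Their growth levels had the reverse order, with the H3.1 line highest for 17 of 22 (38.6% of all genes) and the H3t line lowest for 14 (37.4%). After differentiation the H3t line was highest for 14 of 22 (30.6% of all genes) and the H3.1 line lowest for 18 (33.3%).

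**Figure D3:**
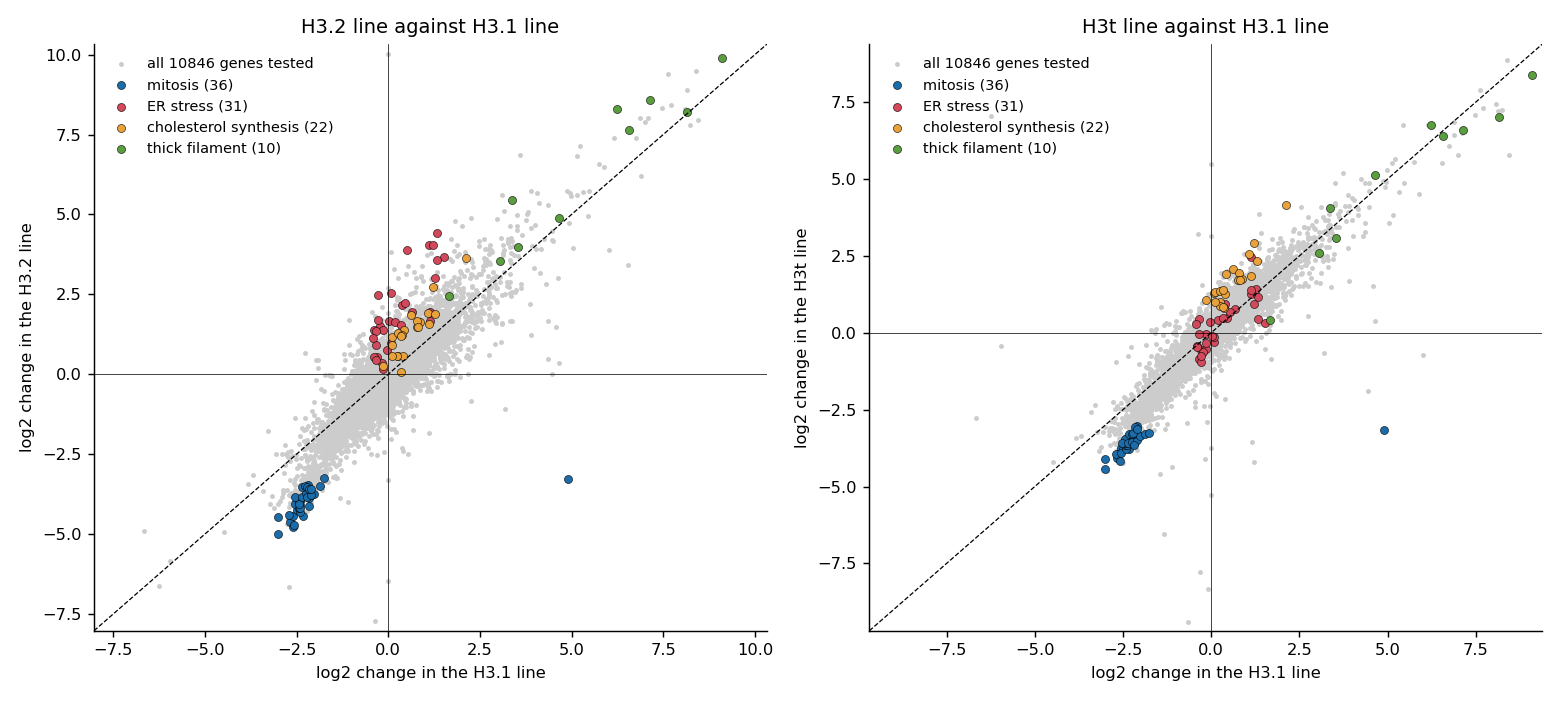
Log2 change of each tested gene in the H3.2 line (left, y axis) and the H3t line (right, y axis) against the H3.1 line (x axis), with the genes of 4 lists coloured and equal change as a dashed line. Mitosis genes lay below equal change in both panels, ER stress genes above it in the H3.2 panel, and most sterol synthesis genes above it in the H3t panel.

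The growth library of the H3t line stood apart in a few ribosomal genes. Rps27 went from 4161, 4082 and 101 FPKM to 4111, 5493 and 4602 FPKM, while Rpl34 was at 84.0, 113 and 2044 FPKM in the growth libraries. Rpl34-ps1, its pseudogene copy, had the reverse order, with 2875, 3036 and 248 FPKM. Gm9846 was at 16.7, 0.495 and 2352 FPKM in growth. Genes with near-identical copies share reads, so how the counting assigned them cannot be told from these values, and none of the 4 was called.

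Compared with the 6 H3.3-type lines, the change mostly had the same direction. Of 1083 genes called higher 1053 had a mean change above 0 in those lines, and of 1022 called lower 1014 had one below 0. When the difference of the change was tested in 1 fit on 18 libraries (10931 genes), 3 genes were more positive in the H3.1, H3.2 and H3t lines (0.0274%) and 0 more negative, with 1771 (16.2%) at an unadjusted p below 0.05. The 3 were Ly6a, Ly6c1 and Ly6c2, neighbours on chromosome 15 of mm9 within 116807 bases (Ly6a at chr15:74825308-74828064, Ly6c1 at chr15:74875447-74879260 and Ly6c2 at chr15:74938590-74942114, all protein coding on the minus strand). They encode small GPI-anchored surface proteins, and Ly6a is the antigen Sca-1. Ly6a was at 319, 349 and 200.0 FPKM in growth and at 1480.5, 766 and 1107 FPKM in differentiated cells. In the 6 H3.3-type lines it was at 399 to 867 FPKM in growth and 185 to 527 FPKM after differentiation, lower in 6 of 6 lines. Ly6c1 went from 48.2, 38.8 and 26.7 FPKM to 185, 116 and 137 FPKM, and it was lower in 6 of 6 H3.3-type lines, going from 51.5 to 92.6 FPKM in growth to 15.4 to 47.4 FPKM. Ly6c2 was at 4.23, 8.87 and 1.83 FPKM in growth and at 20.4, 27.9 and 14.7 FPKM in differentiated cells. In the H3.3-type lines Ly6c2 was at 2.23 to 14.9 FPKM and then 1.09 to 14.7 FPKM, lower in 5 of 6. The differences of the change were 2.98 for Ly6c1, 2.79 for Ly6a and 2.23 for Ly6c2, each with an adjusted p of 0.0453. Ly6c1 and Ly6c2 are close copies of each other and may share reads. These calls were near the threshold. No gene was called as more positive when any one of the H3.1, H3t, H3.3, H3mm7, H3mm11, H3mm13 and H3mm16 lines was left out, 2 were without the H3mm12 line, and 26 without the H3.2 line, with 4 more negative. The size of the difference for Ly6a stayed between 2.52 and 3.19 over all alternatives.

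**Figure D4:**
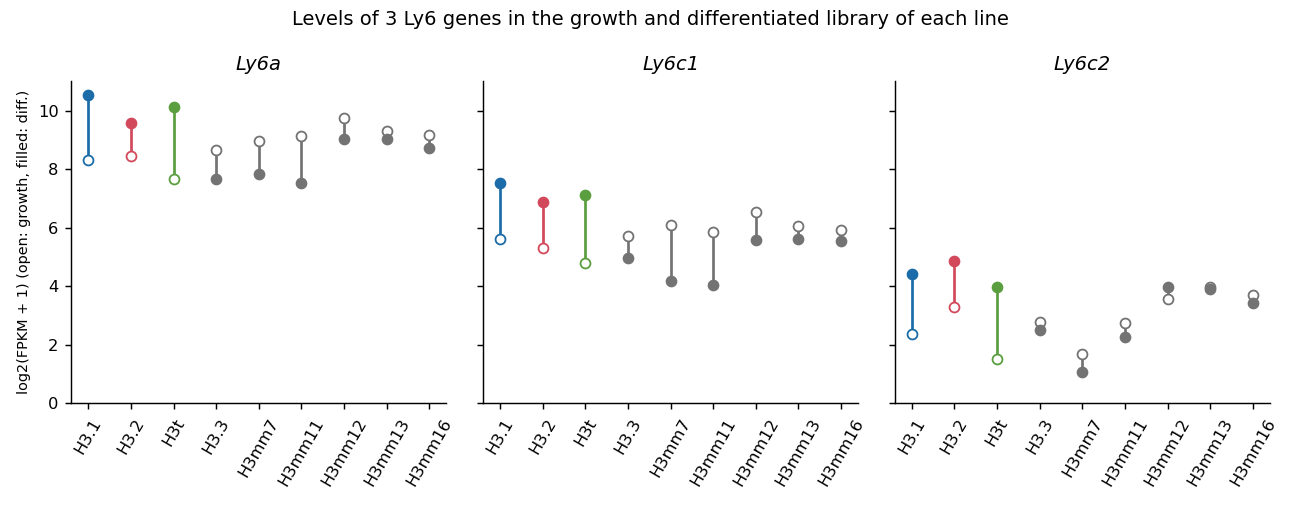
Levels of Ly6a, Ly6c1 and Ly6c2 as log2(FPKM + 1) (y axis) in the growth library (open) and the differentiated library (filled) of each of the 9 GFP-H3 lines (x axis). All 3 genes were higher after differentiation in the H3.1, H3.2 and H3t lines, and Ly6a and Ly6c1 were lower in each of the 6 others.

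No gene was called as more negative, and the 5 with the smallest p were Galnt7, Nefl, Ankrd33b, Ccbe1 and A230070E04Rik, with adjusted p from 0.0835 to 0.105. Nefl, the light neurofilament chain, was at 33.1, 13.1 and 13.9 FPKM in growth and at 2.76, 0 and 0.0446 FPKM after, a change of -3.61 against -1.69 in the H3.3-type lines. Among muscle regulators Myog rose by 7.75 against 5.55 in the H3.3-type lines (adjusted p = 0.105 for the difference), and Myod1 by 2.27 against 0.00 (adjusted p = 0.221). Growth levels of Myog were 0.106 to 3.21 FPKM here and 7.35 to 23.1 FPKM in the H3.3-type lines. After differentiation the levels overlapped, at 329 to 929.7 FPKM here and 347 to 1151 FPKM there. Cdh15 rose by 2.04 against 1.16 (adjusted p = 0.105). These differences did not pass the test.

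Gene groups are given as counts at an unadjusted p below 0.05, which 16.2% of all genes reached. For the thick filament list it was 0 of 10. For mitosis it was 25 of 36, all with a smaller fall in the H3.1, H3.2 and H3t lines, and the median change was -4.33 in the H3.3-type lines. Without the H3.1 line this count was 1 of 36, with a median difference of 0.54 instead of 1.02. It was 8 without the H3mm13 line, 9 without the H3mm11 line, 13 without the H3t or the H3mm16 line, 14 without the H3.3 line, and 9 with a pseudocount of 5 FPKM. The median difference stayed above 0 whichever line was left out (0.54 to 1.39). For cytosolic ribosomal proteins it was 34 of 36, all more negative here, with medians of -0.28, -0.14 and -0.20 in the H3.1, H3.2 and H3t lines and 0.20 to 0.98 in the 6 H3.3-type lines. Quantile normalization left 5 of the 36 and a median difference of -0.16 instead of -0.67. The sum of FPKM over all genes moved in the same way, at 583613 to 652841 in the 3 differentiated libraries here and 702942 to 894105 in the 6 of the H3.3 type, and its part in the result was not tested. For sterol synthesis it was 8 of 22, all more positive here, with 0 without the H3t line, 2 without the H3.2 line, 3 without the H3mm7 line, 5 without the H3.3 or the H3mm11 line, 13 without the H3mm13 line and 14 without the H3.1 line. For growth factor signalling it was 8 of 15, with 7 more positive here and 1 more negative, and the 7 became 3 without the H3.1 or the H3t line and 4 without the H3.2 line, the H3.3 line or the block. For E2F factors and G1 cyclins it was 8 of 17, with 5 more positive and 3 more negative, and the 8 became 4 without the H3.1 line, 3 without the H3t line and 5 without the H3mm11 line, the H3mm16 line or the block. In every other list outside the cell type markers 0 to 33.3% of the genes reached this level. No gene of these 6 lists passed the test after adjustment.

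**Figure D5:**
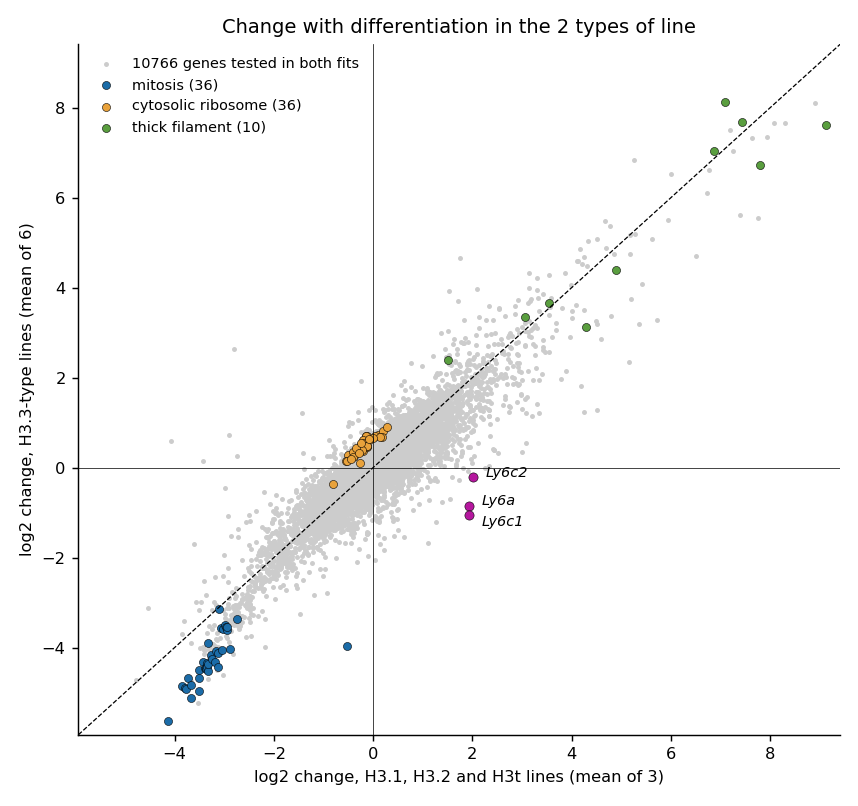
Mean log2 change in the 6 H3.3-type lines (y axis) against that in the H3.1, H3.2 and H3t lines (x axis) for the 10766 genes tested in both fits, with 3 lists and 3 Ly6 genes coloured and equal change as a dashed line. Ly6a, Ly6c1 and Ly6c2 lay below the line on the right, ribosomal protein genes above it and most mitosis genes below it on the left.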

How the data were processed

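Poly(A) RNA of the growth and differentiated cells of each line was sequenced once. Per the paper's methods and the submitters' processing notes, the authors aligned the reads to mm9 with TopHat2 2.0.8 and computed the FPKM values with Cuffdiff of Cufflinks 2.0.1, and the FPKM table was used as deposited. It holds no counts, so depth is unknown and no counting interval is given. Values were taken as log2(FPKM + 1), genes with a mean of at least 1 FPKM over the 6 libraries were kept, and limma 3.58.1 in R 4.3.3 (trend and robust settings) was fitted with line and state as terms. P-values were adjusted by Benjamini-Hochberg over all genes kept. The difference from the H3.3-type lines was the interaction in a fit on 18 libraries. The pairing comes from the line, since growth and differentiated cells of 1 line carry the same transgene. Deviations from the group means correlated within a line at 0.60, 0.35 and 0.54 (H3.1, H3.2 and H3t), and between lines at -0.48 to -0.07. The deviations of the 3 lines cancel out in each state, so the correlations between lines tend to be negative whenever those within a line are positive. An exact sign-flip test over 3 lines cannot go below p = 0.25 (two-sided) and was not used. Fits were tested on simulated data with known changes.

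The members and gene lists were chosen with earlier results of these data known. Genes named are the 10 largest rises and falls, genes marked in the lists, the largest called rise and fall of each list and members called against it, the genes of the interaction, the 5 per line and direction farthest from the other lines, and those at the filter's edge. A few genes that this rule names are not reported here. Actg2, Chaf1b, Cox8b, Dll1, Hes6, Heyl, Hmga2, Insig1, Krt14, Mef2a, Mvd, Plaur, Pparg, Prim1, Racgap1, Rrm1, Smyd1, Sox9, Tagln, Tead4, Tnnt1, Tubb3 and Ube2c fall outside this rule, and their values were known when they were chosen. The same holds for Gapdh, Hes1, Jag1, Notch1, Notch2, Snai2 and Zfp36l1. Alternatives were other pseudocounts, filters and scalings, a fit without the pairing, a fit without trend and robust settings, a fit without genes listed at 0, the 18 libraries in 1 fit, and each line left out.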

Additional observations from a re-analysis of the deposited data

Results flagged for a closer look

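The 3 neighbouring genes Ly6a, Ly6c1 and Ly6c2 were picked out because a test of the difference itself separated the change in the H3.1, H3.2 and H3t lines from that in the 6 H3.3-type lines. The difference on the log2 scale was 2.98 for Ly6c1, 2.79 for Ly6a and 2.23 for Ly6c2, each with an adjusted p of 0.0453 (limma, Benjamini-Hochberg). All 3 were higher after differentiation in 3 of 3 of these lines. Ly6a and Ly6c1 were lower in 6 of 6 H3.3-type lines and Ly6c2 in 5 of 6. Over the alternatives the adjusted p ranged from 0.026 to 0.517 for Ly6a, from 0.0233 to 0.517 for Ly6c1 and from 0.005 to 0.467 for Ly6c2.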

How the results depend on the processing

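The counts of 1083 genes higher and 1022 lower were within 1.5 times under every alternative except a pseudocount of 5 FPKM, which gave 567 and 641, with 567 and 639 of these shared. Leaving out 1 line gave 1001 to 1158 higher and 940 to 1118 lower. The pairing moved little, since without the block there were 1047 and 986. The 3 genes with a more positive change than in the H3.3-type lines became 0 with a pseudocount of 0.1 FPKM, 0 with no filter, 0 without the block and 5 with quantile normalization, and ranged from 0 to 26 when 1 line was left out, with 26 without the H3.2 line. The 0 genes with a more negative change became 1 with a pseudocount of 5 FPKM, 1 with quantile normalization and 0 to 4 when 1 line was left out. Of 135 named genes called, 100 kept their call under every alternative in which they were tested. With a mean of at least 5 FPKM 11 of the 135 were not tested, and with a pseudocount of 5 FPKM 35 changes were smaller by more than 1.5 times. The sign of 13 changes turned when a line was left out, none of a called gene, and the cause was not tested. Over the lines left out, ranges were -0.51 to 0.11 for Gstm1, -0.11 to 1.31 for Hspa5, -0.29 to 0.14 for Mt1, -0.0001 to 0.67 for Mthfd2, -0.11 to 0.44 for Myf5, -0.42 to 0.65 for Pdia4, -0.55 to 0.027 for Phgdh, -0.37 to 0.38 for Psat1, -0.18 to 1.01 for Slc7a11, -0.17 to 1.62 for Rpl34-ps1, -1.48 to 0.041 for Loxl2, -0.98 to 0.50 for Stmn2 and -0.62 to 1.09 for Sdf2l1. With FPKM alone, depth cannot be set beside any value.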
